A study of Mus musculus with 8 samples.

Results

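Indels were counted in brain nuclei that had been sorted as Cas9-negative after injection of AAV vectors coding for CRISPR/Cas9. The libraries were chosen by their labels: all 4 Cas9-negative libraries of the 8 libraries in the series. Guide Sa2, directed at miR-128, and guide Sa4, directed at miR-124, were the active guides (2 libraries); the construct without a guide and guide Sa1, which the labels call inoperative, served as controls (2 libraries). The study asked which mutations the guides introduced at the 3 miR-124 and 2 miR-128 loci and elsewhere. All 4 groups shared the same treatment otherwise: wild-type C57BL/6 mice, vector coding for Cas9 given into the motor cortex, tissue taken 4 weeks later, nuclei dissociated and sorted by fluorescence, and the fraction without Cas9 signal kept. Each group is 1 library. The labels name neither the number of animals behind a library nor a marker of neurons in the sort, and they describe the cells as neural. The sort fraction could not be checked in these data, which hold no measure of Cas9 itself.

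CRISPR/Cas9 cuts DNA where its guide RNA pairs with the target beside a short recognition motif. The cell often rejoins the ends with a few bases lost or gained, and short repeats that flank the cut favour loss of the stretch between them. miR-124 and miR-128 are microRNAs that are abundant in neurons. Each hairpin is processed to a short mature strand whose seed, bases 2 to 8, pairs with target messages, and several gene copies can give the same mature strand.

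The sequences in which the indel reads of both active guides gathered are shown first. The miR-128-2 amplicon is identical to the RefSeq hairpin of Mir128-2 (chr9:112118636-112118711, minus strand, GRCm38.p6), inside the gene Arpp21. Base 1 is the 5′ end of the expected sequence. In miR-128-3p the capitals mark the seed; in the next 3 lines they mark the mature bases that are present. The predicted cut lies after base 49. For miR-128 this place was chosen after the indel positions had been seen, so the nearness of indels to it is no separate result. In the 4 miR-124-2 lines, which show bases 50 to 89 of the expected amplicon (Mir124a-2, chr3:17795662-17795770, inside Mir124-2hg), the predicted cut after base 69 lies in the middle of the 8 capitals of the expected sequence. The capitals of the next 3 lines mark the inserted base or the bases that a deletion joined.
miR-128-3p: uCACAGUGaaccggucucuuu
expected miR-128-2: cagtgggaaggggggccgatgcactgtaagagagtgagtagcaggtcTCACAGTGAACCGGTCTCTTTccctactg
2-base deletion, guide Sa2: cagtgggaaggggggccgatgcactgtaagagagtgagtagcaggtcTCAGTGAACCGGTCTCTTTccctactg
7-base deletion, guide Sa4: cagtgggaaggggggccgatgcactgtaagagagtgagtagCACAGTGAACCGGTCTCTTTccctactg
expected miR-124-2: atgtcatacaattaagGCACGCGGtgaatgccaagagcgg
insertion of A, guide Sa4: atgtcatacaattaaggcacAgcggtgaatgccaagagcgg
insertion of T, guide Sa4: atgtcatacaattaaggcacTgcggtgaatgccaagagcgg
6-base deletion, guide Sa4: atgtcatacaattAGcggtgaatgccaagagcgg

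Of 16 amplicons, 15 had at least 1 read direction with reads in all 4 libraries: the 5 targeted hairpins and 10 predicted sites elsewhere, of which the authors named 7 for Sa4, 2 for Sa1 and 1 for both. Of 28 blocks of reads (1 amplicon in 1 direction), 26 were used; the other 2 lacked reads in 1 of the 4 files, and the limit of 90% of reads beyond the mutation limit removed 0 more (the highest block kept had 55.1%). The files held 618088 to 1013538 reads per library, and 556135 to 937497 of them were used. The library with guide Sa4 stood apart. It had the fewest reads, 76.2 substitutions per 10000 read bases against 54.6 to 60.02 in the other 3 libraries, the lowest share of mutation-free reads at 15 of 15 amplicons and the highest share of reads beyond the authors' mutation limit at 14 of 15. Results that include it are therefore also given for guide Sa2 alone.

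With guide Sa2, indels were more frequent than in both controls at its target miR-128-2 and at no other of the 15 amplicons. The amplicons outside the hairpins were named by the authors for Sa4, Sa1 or both, and none for Sa2. They therefore say little about where else Sa2 may cut. The Sa2 library carried an indel within 10 bases of the predicted cut in 1847 of 100118 reads, or 1.84% (1.76 to 1.93%, Wilson's 95% interval). Such reads numbered 9 of 151938 without a guide (0.00592%; 0.00312 to 0.0113%) and, with guide Sa1, 14 of 161060 (0.00869%; 0.00518 to 0.0146%). The Sa2 share was 311 times that without a guide (exact 95% interval 164 to 682) and 212 times that with guide Sa1 (126 to 389). Both intervals, like all others here, cover counting error only. The differences were 1.84 percentage points from each control (two-sided Fisher's exact test on reads, Benjamini-Hochberg adjusted p = 3.7e-299 for each, the lowest value the calculation allows). Each test sets the reads of 1 library against those of another and says nothing of the conditions, because no group had a second library. A locus was counted as above background when its adjusted p was under 0.05 against both controls and the difference was at least 0.1 points. For guide Sa2 this was 1 of 15 amplicons (6.67%), with 0 of 15 below both controls. The controls differed from each other at 0 of 15 amplicons (Fisher's exact test; 0 also at an unadjusted p under 0.05).

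**Figure D1:**
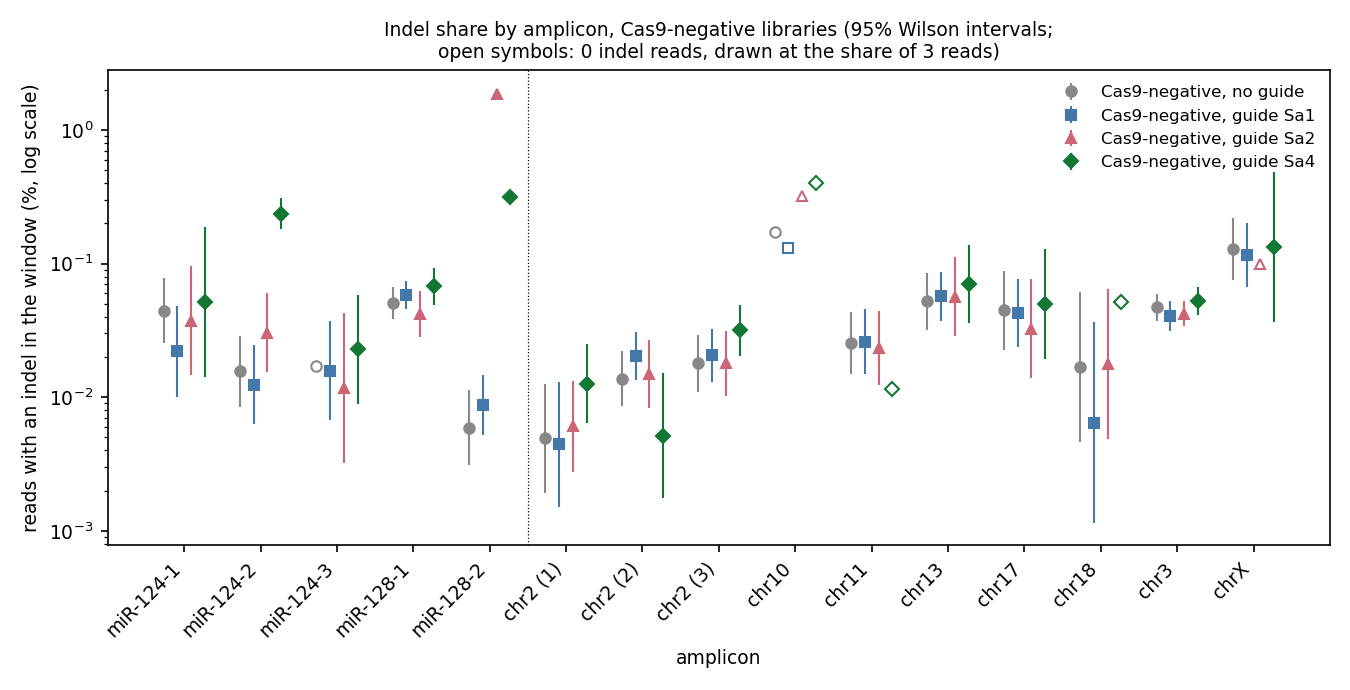
Share of reads with an indel within 10 bases of the predicted cut (vertical axis, percent, log scale) at the 5 targeted hairpins (left of the dotted line) and 10 other amplicons, for each of the 4 Cas9-negative libraries; bars are 95% Wilson intervals and open symbols stand for 0 indel reads, drawn at the share of 3 reads. The Sa2 library stands at 1.84% and the Sa4 library at 0.317% at miR-128-2, and the Sa4 library at 0.236% at miR-124-2; the controls lie at 0.0157% or below at these 2 hairpins.

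Nearly all of the Sa2 indel reads held one and the same allele. A deletion of CA, bases 49 and 50 (chr9:112118662-112118663), accounted for 1811 of 1847 indel reads, or 98.1% (97.3 to 98.6%), and for 1.81% of all reads. The allele was found in 951 forward reads (1.78% of that direction) and 860 reverse reads (1.84%). It had 1 read without a guide, 0 with guide Sa1 and 0 with guide Sa4. Its share was therefore at least 971 times that with guide Sa1, taken at 3 reads, and 2748 times that without a guide, a ratio whose exact interval starts at 493 because the control count is 1 (Fisher's exact test, adjusted p = 4.2e-299 against each control). Here and below, the limit of a control with 0 reads is the share of 3 reads, and a ratio to it carries no interval. The bases around the cut are a repeat of CA, so the same deletion can be placed at bases 49 to 50, 50 to 51 or 51 to 52. In each placement it takes 2 of the 7 seed bases of miR-128-3p: the seed letters occur 0 times in the deleted sequence and 1 time in the expected one, and an unbroken run of 18 of the 21 mature bases is left.

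The other Sa2 alleles were few. A deletion of GT from base 53 had 15 reads (0.0150% of reads) and 0 in each control, at least 7.59 and 8.04 times their limits (Fisher's exact test, adjusted p = 8.2e-06 against no guide and 5.4e-06 against guide Sa1). All 15 of these reads also carried the substitution C51G, and all 15 are as close, or closer, to the CA deletion with substitutions as to the listed combination. A deletion of TC from base 46 had 5 reads, against 2 without a guide and 0 with guide Sa1. Deletions of G at base 44 (3 reads) and of C at base 42 (2 reads) were also seen in 1 or both controls with 1 to 2 reads. Without the CA deletion, 36 Sa2 indel reads were left, 0.0360% of reads. Of single indel alleles with at least 10 reads over the 4 libraries, 17 were tested. With guide Sa2, 2 of them (11.8%), both described above, were above both controls and 0 were below. Between the controls 0 differed (Fisher's exact test, 0 also at an unadjusted p under 0.05). Both called alleles reached 10 reads only through the Sa2 library, so the share called and the 0 between the controls depend in part on that filter.

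The CA-deleted reads were not copies of a single listed sequence. They fell into 189 distinct sequences over both directions, since 18.5% of them also carried a substitution. Among listed reads of the same library without an indel this share was 14.7%. Substitutions alone split reads into distinct sequences, and the reads carry no molecular identifier. The number of sequences therefore does not tell how many edited molecules there were. The Cas9-positive Sa2 library had 5371 reads of the same deletion, 17.3% of them with a substitution. The most frequent further substitution among the CA-deleted reads of the Cas9-negative Sa2 library, T4G, was in 36 reads (1.99%), against 0.164% of reads without an indel. In the Cas9-positive Sa2 library it was T46G, in 85 reads of the deletion (1.58%), against 0.282% of reads without an indel. Each was picked as the most frequent in its library, so its excess is no separate result.

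**Figure D2:**
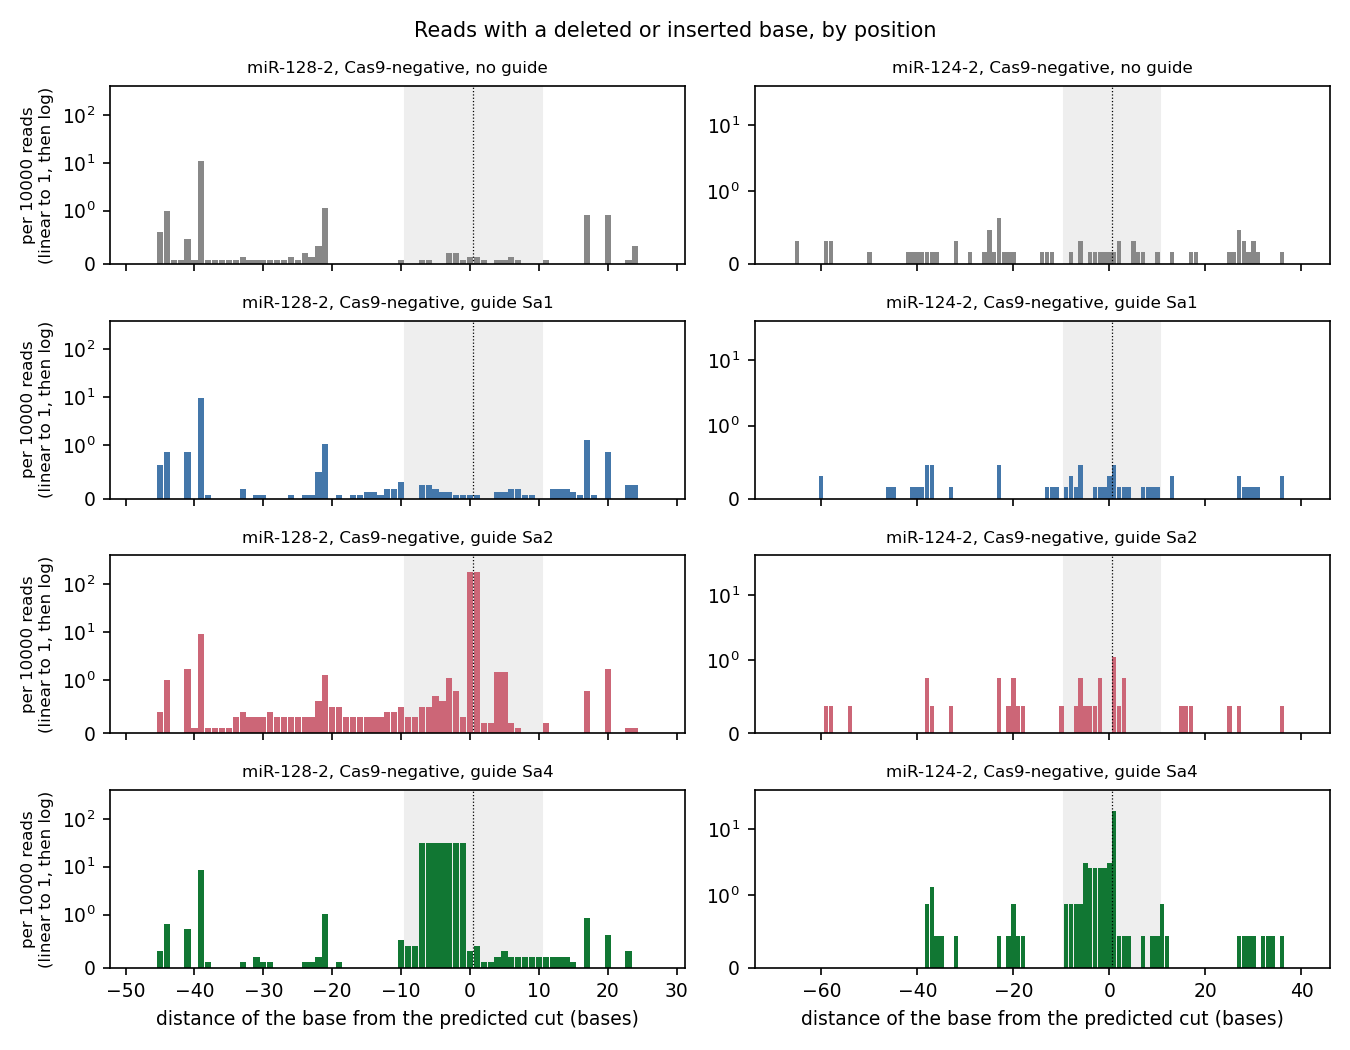
Reads in which a base was deleted or received an insertion, per 10000 reads (vertical axis, linear up to 1 and logarithmic above), by distance of the base from the predicted cut (horizontal axis, bases) at miR-128-2 and miR-124-2 in the 4 Cas9-negative libraries; grey marks the 20-base window, and a read with events at 2 places is drawn over the whole span between them. At miR-128-2 the Sa2 library peaks at 181 per 10000 on the 2 bases beside the cut, the Sa4 library at 30.5 to 30.9 over 7 bases before it, and a peak 39 bases before the cut is at 8.43 to 11.0 in all 4 libraries. The cut of miR-128-2 was placed after the indel positions had been seen, so the nearness of these peaks to it is no separate result.

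A peak outside the window was seen at miR-128-2 in every Cas9-negative library. It lies at the run of G near base 10, where the indel reads numbered 11.0 per 10000 without a guide, 9.87 with guide Sa1, 9.29 with guide Sa2 and 8.43 with guide Sa4. There the 2 active guides were the lowest, and the highest library was 1.30 times the lowest. These are shares at a single base in a run of G, not a like measure to the indel share in the window. Whether they bear on the indels near the cut was not tested.

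Guide Sa4 had more indels than both controls at 2 amplicons, and the larger number of reads was at miR-128-2, which is not the locus that the guide is directed at. The Sa4 library had an indel there in 305 of 96117 reads, 0.317% (0.284 to 0.355%), which is 53.6 times the share without a guide (27.9 to 118) and 36.5 times that with guide Sa1 (21.4 to 67.6). The differences were 0.311 and 0.309 points (Fisher's exact test, adjusted p = 4.4e-110 and 8.6e-109). The share was below the 1.84% of the Sa2 library, and the Cas9-positive library of the same guide had 5 of 77436 reads (0.00646%; 0.00276 to 0.0151%) at this locus. With guide Sa4, 2 of 15 amplicons (13.3%) were above both controls and 0 of 15 below.

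Again a single allele held the indel reads, but not the one found with guide Sa2. A deletion of CAGGTCT, bases 42 to 48 (chr9:112118664-112118670), made up 288 of 305 indel reads, 94.4% (91.3 to 96.5%), or 0.300% of reads. It was read 133 times forward (0.264%) and 155 times in reverse (0.339%). The other 3 Cas9-negative libraries had 0 reads of it, and so had the Cas9-positive library with guide Sa4. The Sa4 share was at least 152 times the limit without a guide and 161 times that with guide Sa1 (Fisher's exact test, adjusted p = 4.3e-118 and 1.7e-122). Without this allele 17 indel reads were left (0.0177% of reads): GCAGGTCT from base 41 with only AG left (3 reads), AGGTCTCA from base 43 with only a T left (2 reads), a deletion of G at base 44 (2 reads), and alleles of 1 read or few.

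The 7-base deletion spans a stretch that begins with the same 2 bases, CA, that follow it, so it can be placed at 3 positions up to bases 44 to 50. Its sequence keeps the last 20 of the 21 mature bases as an unbroken run and the seed letters 1 time, unlike that of the 2-base deletion. None of the 288 reads carried a substitution. The authors' tally adds 1 mutation for each deleted base, and at this amplicon reads with more than 7 mutations are not listed; a 7-base deletion with a substitution would be beyond that limit. Longer deletions are not seen at all. In the Sa4 library 5.39% of miR-128-2 reads were beyond the limit, against 3.71 to 3.93% in the other 3. Reads with the 7-base deletion and any other mutation are therefore not in its count.

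At miR-124-2, a locus that guide Sa4 is directed at, the Sa4 library had an indel in 54 of 22858 reads, 0.236% (0.181 to 0.308%). The count was 10 of 63719 without a guide (0.0157%; 0.00853 to 0.0289%), with guide Sa1 8 of 64494 (0.0124%; 0.00629 to 0.0245%) and with guide Sa2 8 of 26318 (0.0304%; 0.0154 to 0.0600%). The Sa4 share was 15.1 times that without a guide (7.59 to 33.2) and 19.05 times that with guide Sa1 (9.01 to 46.3), a difference of 0.221 and 0.224 points (Fisher's exact test, adjusted p = 5.3e-21 and 1.6e-22). The 2 read directions gave 7 of 4347 forward reads (0.161%) and 47 of 18511 reverse reads (0.254%). With forward reads alone the difference from no guide was 0.137 points and was not past the threshold (Fisher's exact test, adjusted p = 0.118).

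Most of the 54 reads had gained a base at the cut. An insertion of A at base 70 had 28 reads, 0.122% of reads (1 forward and 27 reverse), and an insertion of T at the same place 14 reads, 0.0612% (1 forward and 13 reverse). The directions were unequal: 0.0230% of forward and 0.146% of reverse reads for A, and 0.0230% and 0.0702% for T. A substitution was also carried by 10 of the reads with A (35.7%) and 6 of those with T (42.9%). Both controls had 0 reads of either, and the Sa2 library had 0 of the first and 2 of the second. The insertion of A was at least 26.0 and 26.3 times, and that of T at least 13.0 and 13.2 times, the limits of the 2 controls (Fisher's exact test, adjusted p = 8.9e-16 and 8.4e-16 for A, 8.5e-08 for T against each control). A deletion of AGGCAC, bases 64 to 69, had 6 reads and was not tested, being below 10 reads; the other 3 Cas9-negative libraries had 0 reads of it, and so had all 4 Cas9-positive ones. Of the 17 tested indel alleles, the 7-base deletion at miR-128-2 and these 2 insertions, 3 in all (17.6%), were above both controls with guide Sa4, and 0 were below. All 3 reached 10 reads only through the Sa4 library, so this share too depends in part on the filter. At an unadjusted p under 0.05 the number was 4 (Fisher's exact test). The further allele, CAT replaced by ATA from base 38 of miR-128-1, had 7 Sa4 reads, 2 without a guide and 1 with guide Sa1 (Fisher's exact test, adjusted p = 0.0746 and 0.0153). Substitutions within 10 bases of the miR-124-2 cut were also more frequent in the Sa4 library, 12.1% of reads against 7.22 to 7.64% in the other 3. Their part in the insertion counts was not tested.

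At miR-124-1, miR-124-3 and miR-128-1, the indel share of neither guide differed from both controls past the threshold. At miR-124-1 (Mir124a-1, chr14:64590657-64590741, inside Mir124a-1hg), 2 of 3902 Sa4 reads held an indel (0.0513%; 0.0141 to 0.187%), as did 4 of 10670 Sa2 reads (0.0375%), 12 of 26954 reads without a guide (0.0445%) and 6 of 27166 with guide Sa1 (0.0221%). The Sa4 library held the fewest reads of this amplicon, and a share up to 0.187% lay within its interval. At miR-124-3 (Mir124a-3, chr2:180894040-180894107) the counts were 4 of 17520 with guide Sa4 (0.0228%), 2 of 17002 with guide Sa2 (0.0118%), 5 of 31722 with guide Sa1 (0.0158%) and 0 of 17638 without a guide (Wilson's 95% interval up to 0.0218%). At miR-128-1 (Mir128-1, chr1:128202361-128202430, inside R3hdm1), whose mature strand is the same as that of miR-128-2, they were 24 of 57368 with guide Sa2 (0.0418%), 36 of 53370 with guide Sa4 (0.0675%), 66 of 113351 with guide Sa1 (0.0582%) and 51 of 100617 without a guide (0.0507%). The groups overlapped at all 3 of these hairpins.

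The alleles were then set beside those of the Cas9-positive libraries, where the same guides had edited 53243 of 63144 reads at miR-128-2 and 22944 of 24306 reads at miR-124-2. The 7 alleles with most reads in the Cas9-positive Sa2 library held 90.5% of its indel reads, the first of them 17.0%. Ranks and shares cover listed reads only. Beyond the mutation limit lay 10.6% of the Cas9-positive Sa2 reads at miR-128-2, against 3.71% in the Cas9-negative Sa2 library. In the Cas9-negative Sa2 library the 7 alleles held 1817 of 1847 indel reads, 98.4% (97.7 to 98.9%), but only 3 of the 7 were present, and the CA deletion, of rank 5 in the Cas9-positive library with 10.1% of its indel reads, held nearly all. The 4 alleles that ranked above it there had 0, 1, 0 and 0 reads in the Cas9-negative Sa2 library: CAGGTCTC from base 42 with only its A left, the deletion of C at base 49, and the deletions of TCTCAC from base 46 and of CTC from base 47. The CA deletion reached 21.3% of its share of reads in the Cas9-positive library. The TC deletion reached 0.0597% and the C deletion 0.00767%, and each allele at 0, taken at 3 reads, would be at 0.0384% or less. Each of the 7 differed in its share of indel reads between the 2 libraries, 6 being lower in the Cas9-negative one (Fisher's exact test on indel reads, adjusted p from 2.8e-299 to 8.6e-73). These are not 7 separate results. The alleles were picked by their reads in the Cas9-positive library, and 98.1% in the CA deletion left the other 6 little to share.

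The 7-base deletion of the Sa4 library had rank 7 in the Cas9-positive Sa2 library, with 4932 reads and 9.26% of indel reads. Of the other 6 leading alleles the Cas9-negative Sa4 library had 1 read, of the TC deletion, and 0 of the CA deletion. The alleles with GCAGGTCT cut to AG and AGGTCTCA cut to T, seen with 3 and 2 reads, were also present in the Cas9-positive Sa2 library, with 22 and 7 reads. All 7 shares differed (Fisher's exact test on indel reads, adjusted p from 3.6e-267 to 2.3e-12). Here too 1 allele, with 94.4% of the indel reads, left the other 6 little to share, so these are not separate results. The 7-base deletion stood at 3.84% of its share in the Cas9-positive Sa2 library.

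At miR-124-2 the order of the alleles also differed between fractions. In the Cas9-positive Sa4 library the insertion of T led with 44.7% of indel reads, followed by the insertion of G (37.7%) and the deletion of GCGG from base 70 (16.1%); the insertion of A had 58 reads, 0.253%, the same as the insertion of C at base 69. In the Cas9-negative Sa4 library the insertion of A led with 51.9% of indel reads (38.9 to 64.6%) and that of T had 25.9% (16.1 to 38.9%), while the insertion of G and the deletion of GCGG had 0 reads. These 4 shares differed (Fisher's exact test on indel reads, adjusted p = 4.3e-55 for A, 0.00900 for T, 2.6e-11 for G and 0.000203 for GCGG); for the other 3 alleles, at most 58 reads in the Cas9-positive library, no difference was detectable. The insertion of A stood at 51.3% of its share in the Cas9-positive library, and that of T at 0.145%. At miR-124-1, 0 of the 7 leading alleles of the Cas9-positive Sa4 library were seen in the 2 indel reads of the Cas9-negative one, too few for a comparison.

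**Figure D3:**
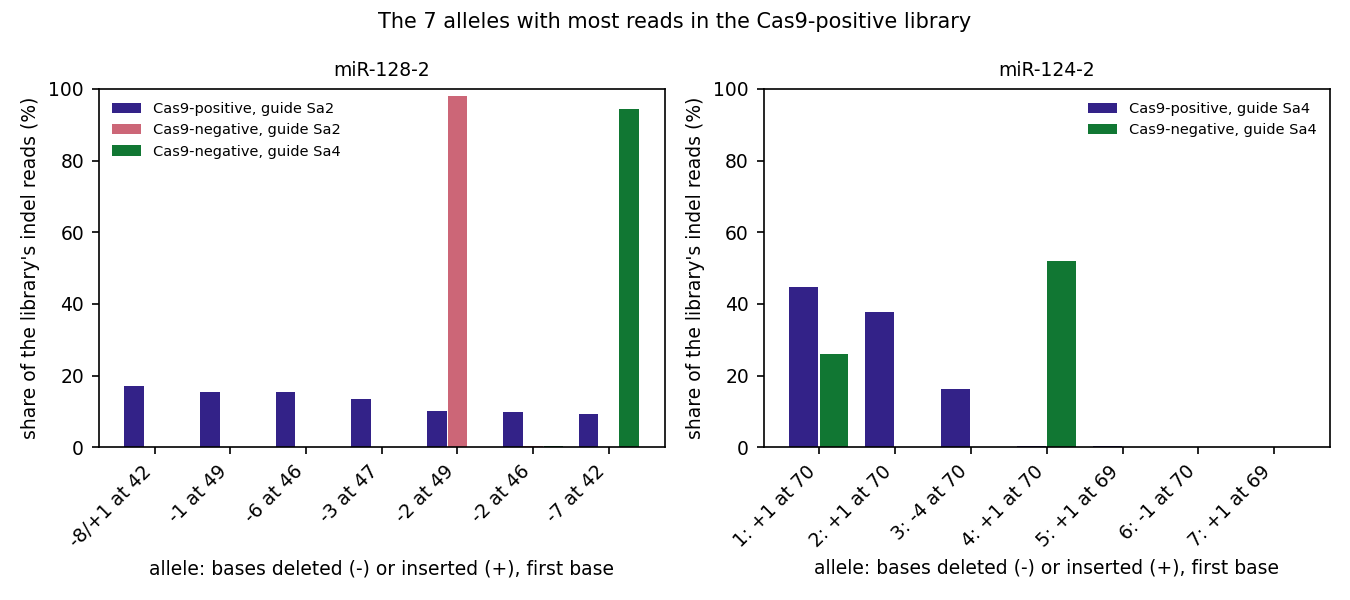
Share of a library's indel reads (vertical axis, percent) in each of the 7 alleles with most reads in the Cas9-positive library, at miR-128-2 (guide Sa2) and miR-124-2 (guide Sa4). An allele is named by the number of bases deleted (-) or inserted (+) and its first base. The label -8/+1 marks a stretch of 8 bases of which 1, the A, remained, not a gained base. The Cas9-positive shares at miR-128-2 lie between 9.26% and 17.0%, while 98.1% of the Cas9-negative Sa2 reads and 94.4% of the Cas9-negative Sa4 reads lie in 1 allele each, and at miR-124-2 the allele of rank 4, the insertion of A, holds 51.9% in the Cas9-negative library.

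The same alleles were then counted in the libraries that showed no excess of indels at the locus. At miR-128-2 the 7 leading Cas9-positive Sa2 alleles had 4 reads in the Cas9-negative library without a guide, 1 with guide Sa1, and 4, 1 and 2 reads in the Cas9-positive libraries without a guide, with guide Sa1 and with guide Sa4, at most 0.00383% of reads. At miR-124-2 the 7 leading Cas9-positive Sa4 alleles had 2 reads in the Cas9-negative Sa2 library and 0 reads in the other 5 libraries without guide Sa4. The Cas9-negative Sa2 library at miR-128-2 (1.81%) and Sa4 library at miR-124-2 (0.184%) lay above all of these. So did the Cas9-negative Sa4 library at miR-128-2, with 289 reads (0.301%), although its guide is not directed at that locus. These reads are part of the indel reads already compared at each locus, by which the low libraries were picked. The order of the libraries is therefore no separate result.

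At the 10 amplicons outside the targeted hairpins, indel shares ran from 0 to 0.128% without a guide, from 0 to 0.116% with guide Sa1, from 0 to 0.0565% with guide Sa2 and from 0 to 0.133% with guide Sa4. Their medians were 0.0217, 0.0233, 0.0178 and 0.0221%. Added over these amplicons, the indel reads were 160 of 567533, 157 of 539704, 138 of 523936 and 110 of 362368 reads (0.0282, 0.0291, 0.0263 and 0.0304%). The Sa4 library, with the most substitutions, was the highest, and the highest library was 1.15 times the lowest. Of these 10, 0 passed the threshold for either guide, and the authors named none of them for Sa2. The lowest unadjusted values were at the chr11 site, where the Sa4 library had 0 of 26120 reads (Wilson's 95% interval up to 0.0147%) against 13 of 50870 and 12 of 45993 in the controls (Fisher's exact test, adjusted p = 0.0609 for each), and the amplicon of the chr10 site had 0 indel reads in all 4 libraries, with 750 to 2284 reads.

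Taken as 2 libraries against 2, the active guides exceeded the controls without overlap at 3 of 15 amplicons (20%): miR-128-2, miR-124-2 and, by 0.00465 points, the chr2-134788648 site. They were below the controls without overlap at 1 of 15, the chr11 site, with a difference of -0.0141 points. At 11 of 15 amplicons the groups overlapped. If the order of the libraries were random, a separation in either direction would have a probability of 0.333 at each amplicon. The counts of amplicons without overlap are therefore no result in themselves. The 2 active libraries carry different guides, of which only Sa2 is directed at miR-128-2 and only Sa4 at miR-124-2. The SDs given here are therefore not a spread of replicates. The mean indel share at miR-128-2 was 1.08% ± 1.08 (SD, n = 2) with an active guide and 0.00731% ± 0.00196 (SD, n = 2) without, a difference of 1.07 points. At miR-124-2 it was 0.133% ± 0.146 against 0.0140% ± 0.00233 (SD, n = 2 each), a difference of 0.119 points. This separation was lost, with the Sa2 library no longer above both controls, with indels of at least 2 bases (0.0210 points) and with sequences of at least 2 reads (0.0684 points) or 10 reads (0.0372 points). The exact permutation test (two-sided) gave p = 0.333 for both, which is the smallest value that 2 against 2 libraries can give. Without the Sa4 library the difference at miR-128-2 was 1.84 points and at miR-124-2 0.0163 points, and without the Sa2 library 0.310 and 0.222 points.

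The excess of substitutions in the Sa4 library was spread over the amplicons. Its indel share was also the highest of the 4 libraries at 10 of 15 amplicons, 1 of which, miR-124-2, passed the threshold. Its substitution rate was the highest of the 4 at 14 of 15 amplicons, at 0.956 to 1.67 times the highest of the other 3 libraries, and above both controls for 12 of 12 kinds of base change. T-to-A changes went from 53.8 and 54.7 per 10000 T bases in the controls to 79.8, and G-to-C changes from 18.6 and 19.3 per 10000 G bases to 28.1, while C-to-T and T-to-C changes, at 3.88 and 3.01, were 1.02 and 1.05 times the mean of the controls. Of 2767 single substitutions with at least 10 reads, 765 (27.6%) were above both controls with guide Sa4 and 5 (0.181%) below; with guide Sa2 these numbers were 17 (0.614%) and 3 (0.108%), and 42 (1.52%) differed between the controls (Fisher's exact test, adjusted p under 0.05; this family was chosen after the data had been examined).

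**Figure D4:**
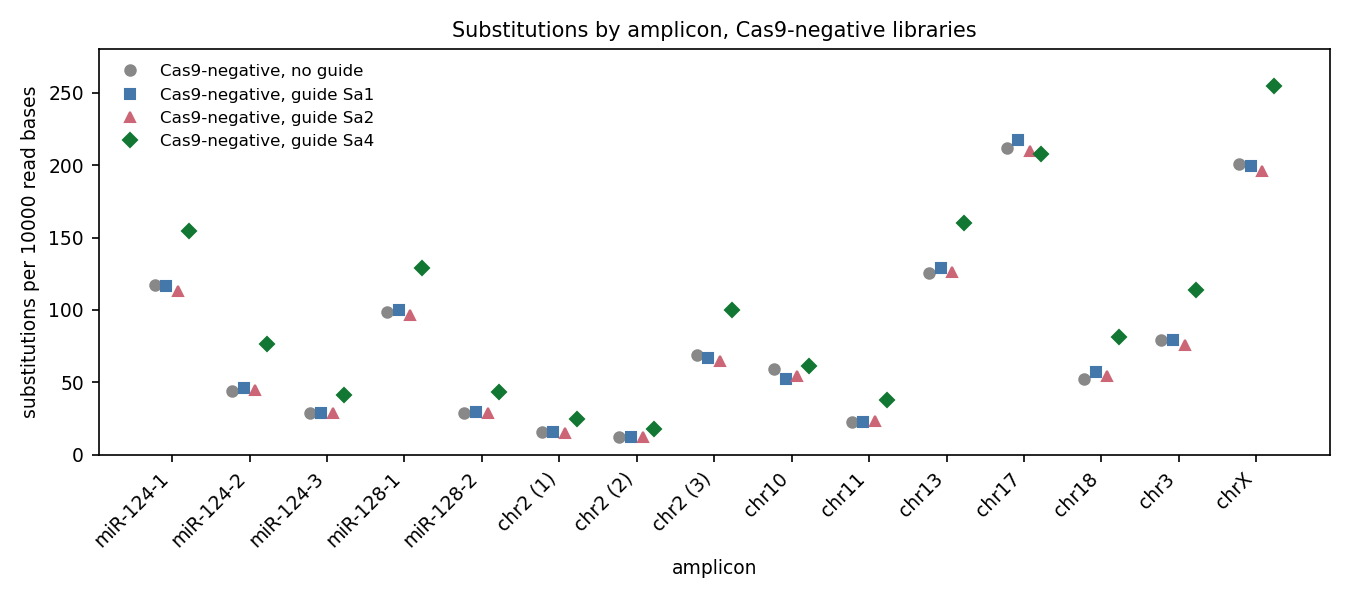
Substitutions per 10000 read bases (vertical axis) by amplicon in the 4 Cas9-negative libraries. The Sa4 library is highest at 14 of 15 amplicons, the exception being the chr17 site, where 54.3% of its reads were beyond the mutation limit.

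Single alleles that stood out in 1 library were sought by a rule chosen after the data had been examined: at least 0.1% of reads in 1 Cas9-negative library and at least 10 times the share in each other one. Of the 17 indel alleles 3 met it: the CA deletion, the 7-base deletion and the insertion of A. Of the 2767 substitutions 3 met it as well, all of them transitions. C19T at the chr17-49055768 site was in 153 of 8010 Sa4 reads (1.91%), 95 forward and 58 reverse, and in at most 0.0427% in the other 3 Cas9-negative and 0.0896% in the Cas9-positive libraries. G10A at miR-128-1 was in 384 of 53370 Sa4 reads (0.720%), 247 forward and 137 reverse, against at most 0.0326% and 0.0484%. The third was in the library with guide Sa1, a control, at the chr18 site with 24 of 15456 reads (0.155%). C19T and G10A lay more than 10 bases from the predicted cut of their amplicon.

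**Figure D5:**
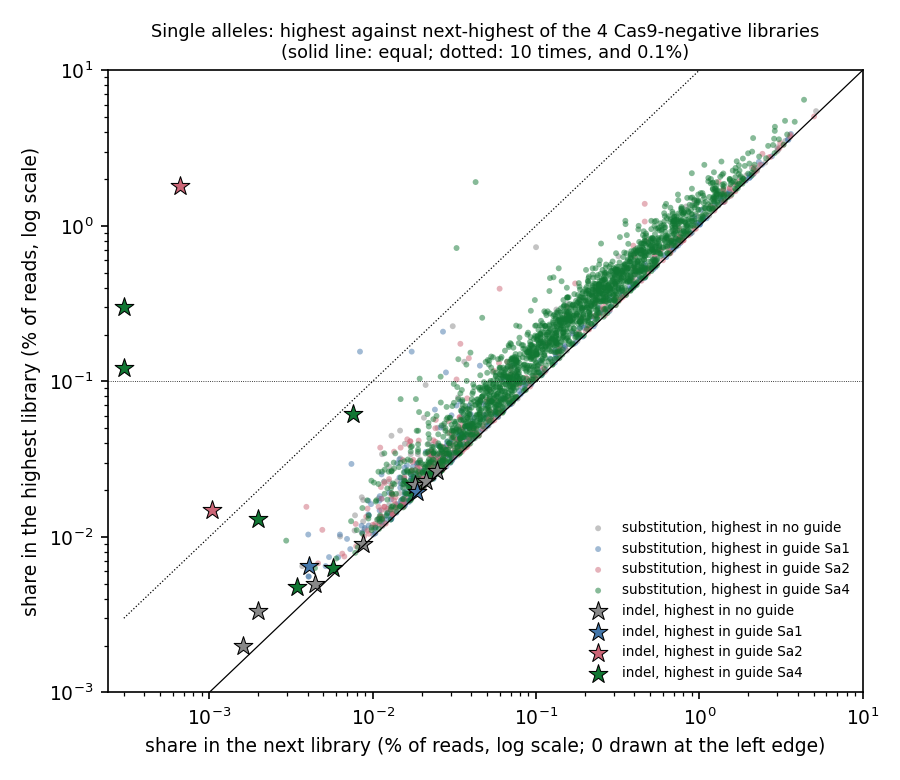
Share of reads (percent, log scales) of each indel allele (stars) and each substitution (dots) in the Cas9-negative library where it was highest (vertical axis) against the library where it was next highest (horizontal axis). Most of the 2767 substitutions lie near the line of equal shares, while the CA deletion (1.81%), the 7-base deletion (0.300%), the insertion of A (0.122%), C19T (1.91%) and G10A (0.720%) lie well above it.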

How the data were processed

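Amplicon sequencing of genomic DNA from sorted nuclei (QIAseq amplicon kit, per the labels) gave 1 file per library. The authors deposited read counts per mutation class and per distinct mutated sequence; the submitters' processing notes name bcl2fastq and cutadapt, and the aligner, mutation caller and genome build are not given in the sources used here. Of 445542 listed sequences, 520 (571 reads) could not be placed on the expected sequence and stayed in the denominator only. The predicted cut was placed 3 bases before the recognition hexamer; for miR-128 this placement was chosen after the indel positions had been seen. Indels were moved to their leftmost place, both directions were pooled, and reads beyond the mutation limit stayed in the denominator. Reads carry no molecular identifier and forward and reverse reads may be mates of 1 fragment, so intervals and p-values cover read counting only.

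Two-sided Fisher's exact tests (SciPy 1.17.1) ran over all 15 amplicons and 5 pairs of libraries (75 tests) and over 17 alleles (85 tests), with Benjamini-Hochberg adjustment over each family; p-values below 1e-300 were set to 1e-300. The tests were run on simulated data first. All targeted loci were named, other amplicons if they passed the test, and of alleles the 5 with most reads per called locus and library; further ones were chosen after their values were seen. The members and lists were chosen with earlier results of these data known. Hairpin positions and miR-128 sequences come from RefSeq (GRCm38.p6).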

Additional observations from a re-analysis of the deposited data

Results flagged for a closer look

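Measures that the indel comparison did not use were above both controls in the Cas9-negative Sa4 library, given as values with no explanation. Its substitutions numbered 76.2 per 10000 read bases, and the median share of reads beyond the mutation limit was 8.53% over 15 amplicons (6.71 and 7.17% in the controls). Substitution C19T at the chr17-49055768 site was in 1.91% of its reads, and G10A at miR-128-1 in 0.720%.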

How the results depend on the processing

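With 1 library per group, nothing measures the spread between animals, and depth limits the chr10 site most, with 750 to 2284 reads; among the targeted hairpins the Sa4 library had the fewest reads at miR-124-1 (3902). No paired analysis was possible because each group has 1 library and the labels give no replicate numbers. Of 187 values under 24 alternatives (2 of them chosen after the data had been examined), 151 kept their direction and their side of the threshold of Fisher's exact test, stayed within 1.5 times a count, or moved less than their spread, and 0 reversed. The smallest difference of 0.1 points was not part of this reading. For 2 against 2 libraries the spread is about as large as the difference, so a fall was still counted as kept. At miR-124-2 this held for 0.119 points falling to 0.0163 points without the Sa4 library, and for alternatives where the groups overlapped. The count of 151 is therefore not a measure of robustness for these means. The 3 differences from no guide stayed past adjusted p = 0.05 (Fisher's exact test) with 1 exception: guide Sa4 at miR-124-2 with forward reads alone, at 0.137 points (adjusted p = 0.118). Without the most frequent allele of each library the differences fell to 0.0314 points (guide Sa2, miR-128-2), 0.0131 points (guide Sa4, miR-128-2) and 0.101 points (guide Sa4, miR-124-2), the first 2 of them below 0.1 points. The difference with guide Sa4 at miR-124-2 was also below it with indels of at least 2 bases (0.0422 points) and with sequences of at least 10 reads (0.0744 points).

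The number of loci above both controls with guide Sa4 was 1 in place of 2 with indels of at least 2 bases, with sequences of at least 10 reads or with forward reads alone, 13 when reads beyond the mutation limit counted as indels and 12 when substitutions did; the controls then differed at 3 and 2 loci. These last counts include the substitutions and unlisted reads that are more frequent in the Sa4 library. The mean difference of active guides at miR-124-2 was then 1.89 and 2.72 points (0.0210, 0.0684 and 0.0372 points with overlap of the groups, for indels of at least 2 bases and sequences of at least 2 and 10 reads), and at miR-128-2 with substitutions 2.18 points. Alleles above both controls with guide Sa2 were 1 in place of 2 with a 5-base window, sequences of at least 10 reads, either direction alone, alleles of at least 50 reads or only sequences without a substitution; with guide Sa4 they were 5 in place of 3 with the 5-base window, which cuts the 7-base deletion, and 1 with indels of at least 2 bases, forward reads alone or alleles of at least 50 reads. The share of indel reads in the 7 leading Cas9-positive alleles, a list drawn anew under each alternative, moved as follows. With indels anywhere it was 90.02% (guide Sa2), 65.5% (guide Sa4, miR-128-2) and 64.6% (guide Sa4, miR-124-2). With the 5-base window it was 51.8% for guide Sa4 at miR-128-2. With indels of at least 2 bases it was 0% at miR-124-2. With sequences of at least 2 reads it was 99.4% and 98.3% at miR-128-2, and with at least 10 reads 100% at both loci. At miR-124-2 it was 28.6% of the 7 indel reads with forward reads alone and 27.7% of the 47 with reverse reads alone, where the insertion of A was not on the list drawn from reverse reads. With the 3 leading alleles only it was 0.0541% (guide Sa2), 0% and 25.9% (guide Sa4 at miR-128-2 and miR-124-2).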
